A study of Mus musculus with 18 samples.

Results

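The sequences described here are 8-mers that carry TGAC, the half-site shared by the cAMP response element (CRE) and the AP-1 site, on the DNA strand that was built with modified cytosine. They were chosen by sequence alone from the deposited table of 8-mer z-scores. An 8-mer was a member when it held TGAC as written, its reverse complement did not, it held no CpG and it held no AP-1 heptamer, which is the CRE octamer with the fourth or the fifth base deleted. This rule gave 849 of the 65530 8-mers in the table, and 848 of them were tested because 1 was carried by no probe. The half-site began at the first base of 149 members and was followed in them by A in 56, by C in 41 and by T in 52. Over all positions of the half-site, the tested members had A after it in 232, C in 185 and T in 224, and 207 ended with it, so that the next base lay outside the 8-mer. A member was carried by a median of 17 probes. Members overlapped in sequence and shared probes, with 4252 of 40330 probes carrying at least 1 member and up to 15 on a probe, so members were not treated as replicates.

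CREB1, ATF1 and JUND from the mouse were each represented by a DNA-binding domain with a glutathione S-transferase tag, expressed in a cell-free system, so no full-length factor and no partner protein was present. On a protein binding microarray such a protein is bound to double-stranded probes and read by fluorescence. The probes were made double-stranded with unmodified C, methylated C (5mC) or hydroxymethylated C (5hmC), which left the modified base on the newly built strand only and normal cytosine on the printed strand. The 9 groups of protein and DNA had 2 arrays each. Nothing in the sources states that both arrays of a group used separate protein preparations, so the p-values measure the spread between arrays, which may be technical.

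bZIP proteins grip DNA as dimers, and the basic region of each partner reads its own half-site in the major groove. CREB1 and ATF1 are close relatives that act on cAMP-responsive genes through the palindromic CRE, which joins 2 half-sites around a central CpG. JUND belongs to the Jun family, whose dimers read the AP-1 site, where the half-sites overlap by a base and no CpG is formed. Cytosine methylation is best known for its effect on the CRE at that central CpG. In the members the CpG was absent, and the cytosine of TGAC was followed by A, C or T.

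Of the members, 8 differ by a single substitution at position 5, counted from 1 at the 5′ end, from 3 CpG sites, and they are printed because they show the half-site in the setting of a known bZIP site without its CpG. Capitals mark the half-site, and each sequence reads 5′ to 3′ on the modified strand. The first 3 derive from the CRE palindrome by G5A, G5C and G5T, the next 3 from the CRE octamer ending in TAA by the same substitutions, and the last 2 from TGAC joined to GCAA, the half-site of C/EBP proteins, by G5A and G5C.
CRE palindrome: TGACgtca
CRE G5A: TGACatca
CRE G5C: TGACctca
CRE G5T: TGACttca
CRE octamer ending in TAA: TGACgtaa
TAA octamer G5A: TGACataa
TAA octamer G5C: TGACctaa
TAA octamer G5T: TGACttaa
half-site joined to GCAA: TGACgcaa
GCAA octamer G5A: TGACacaa
GCAA octamer G5C: TGACccaa

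Binding is given as the z-score of an 8-mer on an array, a linear scale whose median over all 8-mers was near 0 on each array. The median probe signal of the arrays ran from 519 to 8014 and their signal over background from 1.55 to 14.0, the lowest of each on JUND 5hmC replicate 2. Over the members, which are not independent, Pearson r between both arrays of a group ran from 0.719 to 0.938, from JUND 5hmC to CREB1 on C. CREB1 C replicate 2 read higher than replicate 1 at the members (medians of 2.43 and 1.78), and JUND C replicate 2 read lower than its partner (0.718 and 1.54). For results that rest on these arrays, it is stated how the counts moved without them.

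On unmodified DNA, CREB1 and ATF1 bound the members with A after the half-site most. Over the 232 members with A, the median z-score of CREB1 was 2.79 and 4.62 on its 2 C arrays. It was 0.612 and 1.36 with C after the half-site and 1.08 and 1.55 with T, so A stood above the other bases on both arrays. ATF1 gave the same order, with 2.50 and 2.43 for A, 0.506 and 0.352 for C and 0.913 and 0.798 for T. JUND read 1.66 and 1.30 for A and 1.75 and 0.392 for T, and its arrays thus disagreed on the order of A and T. At a z-score of 4 or more on both arrays, which 3.94% of all 8-mers reached with CREB1, 187 members (22.1%) were bound by CREB1. Of these, 80 had A after the half-site, 18 C and 15 T, and 74 ended with it. ATF1 bound 108 members (12.7%) where 2.38% of all 8-mers were bound, and JUND bound 12 (1.42%) where 0.283% were. On modified DNA the counts of ATF1 were 11 with 5mC and 13 with 5hmC, against 0.855% and 0.327% of all 8-mers, and those of JUND 8 and 2, against 0.387% and 0.103%.

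The base in front of the half-site separated the members as well. CREB1 had median z-scores on its C arrays of 4.46 and 6.44 for the 184 members with A in front and of 3.31 and 4.44 for the 146 with G. With C in front the medians were 1.07 and 1.34 over 184 members, and with T they were 0.437 and 0.509 over 185. A and G are purines, and the purine in front of TGAC is part of the extended site that bZIP proteins of this family read. With A on both sides of the half-site the medians reached 6.51 and 9.59 over 46 members, against 1.17 and 1.11 over the 46 with T in front and A behind. JUND showed the same preference in front, at 3.58 and 1.85 for A and 0.252 and 0.105 for T.

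The CRE palindrome with G5A, TGACatca, was the highest of the members that start with the half-site for both CREB1 and ATF1. CREB1 read 21.3 and 40.5 there on C, where the CRE palindrome itself read 193 and 136. ATF1 read 12.4 and 9.07 at TGACatca and 121 and 89.7 at the palindrome. The member thus stood above a z-score of 4 and far below its CpG parent on every one of these arrays. The next member for CREB1 was TGACataa, at 9.38 and 14.8, with 154 and 146 at its parent TGACgtaa. TGACccca (5.71 and 12.7) came next but was carried by only 2 probes, and TGACacta (7.83 and 10.5) and TGACatac (6.31 and 11.7) followed. ATF1 had TGACcccc, which a single probe carried, TGACataa (7.87 and 6.56), TGACatac (5.61 and 6.06) and TGACatgt (4.32 and 6.96) after TGACatca.

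The other substitutions at position 5 gave lower values. CREB1 on C read 3.62 and 7.65 at TGACctca and 4.51 and 5.41 at TGACttca. With the TAA ending it read 2.36 and 3.61 at TGACctaa and 2.26 and 3.13 at TGACttaa. At both endings the member with A exceeded those with C and T on each CREB1 array. At the C/EBP chimera the same order held for A over C, with 6.01 and 6.89 at TGACacaa and 0.958 and 1.92 at TGACccaa, while the CpG parent TGACgcaa read 66.4 and 78.1.

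With 5mC, CREB1 fell at 27.7% of the members, and mainly at those with A after the half-site. By limma with Benjamini-Hochberg adjustment over all 65121 8-mers, 235 of 848 members were lower and 3 were higher, against 6.21% lower and 2.25% higher among all 8-mers (8.45% changed). At all 238 the 5mC arrays did not overlap the C arrays, which is no separate support because these members were selected by the same values. The median difference over the members was -1.42, and -0.06 over all 8-mers. The members that fell comprised 120 of 232 with A after the half-site (51.7%), 18 of 185 with C, 19 of 224 with T and 78 of 207 that end with it. Members with C or T also started lower on C (medians of 0.612 and 1.36, and of 1.08 and 1.55) than those with A (2.79 and 4.62). The part of this starting level in the counts was not tested. The count of changed members fell when CREB1 C replicate 2 or either 5mC array was left out, most for C replicate 2. The share of all 8-mers that changed fell in those fits too. Quantile normalization, which gives every array the same distribution, left 30 changed members (3.54%), near the 3.13% of all 8-mers in that fit.

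These falls also differed by the base in front of the half-site. With A behind the half-site, 34 of 38 members with G in front fell and 33 of 46 with A in front, against 17 of 46 with C and 7 of 46 with T. The 46 with A in front and the 38 with G were also the highest on C: their medians there were 6.51 and 9.59 with A and 4.21 and 7.45 with G. With 5mC those with A read 2.46 and 2.08, and those with G read 1.497 and 1.30. Among the second bases, T after the A gave 32 of 46 members that fell, C 28 of 38, G 18 of 46 and A 13 of 46.

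Members with A after the half-site were also split by the number of cytosines in the 8-mer, though probes carry further cytosines outside it. Of the 108 members with A after the half-site whose only cytosine on the modified strand was that of TGAC, 55 (50.9%) fell with 5mC. Of the 90 with 2 cytosines 46 (51.1%) fell, and of the 30 with 3 cytosines 16 (53.3%) fell, as did 3 of the 4 with 4 cytosines. With 5hmC the corresponding counts were 18 of 108 (16.7%), 31 of 90 (34.4%), 9 of 30 (30%) and 3 of 4.

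The largest called falls of CREB1 with 5mC were at cctaTGAC, TGACatca, gtgaTGAC, atgaTGAC and gTGACata. TGACatca went from 21.3 and 40.5 on C to 3.90 and 0.382 with 5mC, a difference of -28.7 ± 3.85 (SE; limma adjusted p = 2.73e-05). The 5mC values were below 4, so the member was no longer bound on either array. gTGACata, which has the purine in front and TA behind the A, went from 19.1 and 23.6 to 2.09 and 1.85 (difference -19.4 ± 1.71, limma adjusted p = 1.95e-07). Its fall held in every alternative run for it. On the log2 scale of the probe signal over the array median, gTGACata read 2.84 and 3.12 on C and 0.81 and 0.78 with 5mC, and TGACatca read 2.68 and 3.25 on C and 0.79 and 0.24 with 5mC. The loss at both members thus appeared on the scale of the probe signal as well as in the z-scores.

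The other 3 of these falls were at members that end with the half-site. cctaTGAC went from 24.5 and 46.0 to 6.11 and 2.95 (limma adjusted p = 0.000563), gtgaTGAC from 23.96 and 39.2 to 11.9 and 5.32 (0.0032) and atgaTGAC from 19.4 and 33.1 to 8.30 and 5.31 (0.00688). Among their 17, 18 and 18 probes, 5, 7 and 5 held TGACG on either strand, the half-site with the CpG of the CRE. Without those probes the log2 difference of cctaTGAC was -0.52 (limma adjusted p = 0.492), and those of gtgaTGAC and atgaTGAC were -1.52 and -1.14 (limma adjusted p = 0.00762 and 0.0383). With all probes the log2 differences of cctaTGAC, gtgaTGAC and atgaTGAC were -1.74, -1.21 and -1.38 (limma adjusted p = 0.0249, 0.0705 and 0.0154). All 3 calls on z-scores were lost with only the 6 CREB1 arrays and after quantile normalization.

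Of the members printed above, 4 fell with 5mC in CREB1. TGACataa went from 9.38 and 14.8 to 1.93 and 1.18 (limma adjusted p = 2.98e-05), TGACctca from 3.62 and 7.65 to -0.225 and -0.357 (0.000138) and TGACctaa from 2.36 and 3.61 to 0.228 and -0.346 (0.00366), beside TGACatca. The change at TGACctca also held in every alternative run for it, while the calls at TGACataa and TGACctaa were lost after quantile normalization. TGACttca read 1.36 and 1.62 with 5mC (limma adjusted p = 0.0667) and TGACttaa 0.355 and 0.216 (0.124), neither of which passed. TGACacaa kept 4.05 and 3.49 of its 6.01 and 6.89 (limma adjusted p = 0.154), the highest mean of CREB1 with 5mC among the 56 members that start with the half-site followed by A. TGACccaa read 1.11 and 0.33 (0.582). Of the other high members that start with the half-site, TGACacta fell to 0.778 and 1.07 (limma adjusted p = 9.96e-05) and TGACatac to 0.713 and 2.05 (0.000506), while TGACccca, on 2 probes of which 1 holds TGACG, read 1.15 and 2.55 (0.00529). On log2 medians TGACccca did not pass (limma adjusted p = 0.111), and without the TGACG probe its difference was 0.53 (0.437). With 5hmC TGACacta fell to 1.41 and 3.14 (0.000719) and TGACatac to -0.154 and 1.97 (0.000281), while TGACccca read 7.28 and 8.85 (0.793). For both modifications the calls at TGACacta and TGACatac were lost after quantile normalization.

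Only 3 members rose with 5mC in CREB1. gcaTGACc went from 1.63 and 2.39 to 7.57 and 5.12 (limma adjusted p = 0.0091) and caTGACcc, which overlaps it, from 0.385 and 1.87 to 5.88 and 3.81 (0.0296). ttttTGAC went from 0.437 and 1.17 to 3.41 and 3.42 (0.0336). None of these was above 4 on unmodified DNA, and gcaTGACc was above it on both 5mC arrays. On log2 probe medians without the TGACG probes, the rise at ttttTGAC was 0.07 (limma adjusted p = 0.922), that at gcaTGACc 0.82 (0.0608) and that at caTGACcc 1.11 (0.0137). The call at ttttTGAC was also lost with only the 6 CREB1 arrays, after quantile normalization and on log2 medians of all probes. That at caTGACcc was lost after quantile normalization. The call at ttttTGAC rested on all 4 arrays, and the others on 5mC replicate 1 and C replicate 1.

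With 5hmC, CREB1 fell at fewer members. The count was 156 of 848 (18.4%) lower and 1 higher by limma, against 6.78% lower and 1.12% higher among all 8-mers (7.89% changed), and the median difference was -1.12. It comprised 61 of 232 with A after the half-site, 24 of 185 with C, 17 of 224 with T and 54 of 207 that end with it. More members with A reached the z-score of 4 on both arrays with 5hmC than with 5mC. Of the members bound with 5hmC, 66 in all against 1.13% of all 8-mers, 30 had A after the half-site and 29 ended with it. Of those bound with 5mC, 17 in all against 1.38% of all 8-mers, 1 had A there and 10 ended with the half-site. The rise in bound members was thus not limited to those with A. Fewer members changed without CREB1 C replicate 2 or without 5hmC replicate 1, and fewer of all 8-mers did too. Quantile normalization gave 20 changed members (2.36%), below the 2.81% of all 8-mers in that fit.

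The largest falls with 5hmC were at TGACatca, cctaTGAC, gTGACata, aTGACata and gaTGACat. TGACatca read 6.56 and 6.52 with 5hmC (difference from C -24.3 ± 3.85, limma adjusted p = 0.000194), above 4 on both arrays. gTGACata read 2.45 and 3.86 (-18.2 ± 1.71, 3.96e-07). aTGACata, with A in place of that G, went from 18.5 and 24.1 on C to 3.85 and 3.76 with 5hmC (1.37e-06) and 2.70 and 2.06 with 5mC. gaTGACat went from 13.8 and 27.2 to 5.52 and 5.61 (0.00174). After quantile normalization the calls at TGACatca, gTGACata, aTGACata and gaTGACat were lost (limma adjusted p = 0.526, 0.108, 0.242 and 0.897). cctaTGAC read 11.4 and 12.1 (0.00697). Its call was lost on log2 medians (limma adjusted p = 0.232), also without TGACG probes (-0.42, 0.693), and with only the 6 CREB1 arrays, and its difference turned to 2.40 after quantile normalization.

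Among the members printed above, TGACctca had the lowest 5hmC values in CREB1, at -0.517 and -0.267 (limma adjusted p = 0.00012). TGACataa fell to 3.30 and 3.69 (0.000309) and TGACctaa to 0.535 and -0.145 (0.00821), and both of these calls were lost after quantile normalization. TGACttca (0.984 and 1.62, limma adjusted p = 0.0529), TGACacaa (3.12 and 3.46, 0.0805), TGACttaa (1.81 and 1.53, 0.628) and TGACccaa (1.67 and 2.17, 0.74) did not pass. The single rise was at ttttTGAC, to 4.29 and 2.55 (limma adjusted p = 0.0354). Its call was lost with only the 6 CREB1 arrays, after quantile normalization and on log2 medians.

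Set directly against 5mC, few members differed in CREB1. By limma 2 of 848 were lower with 5hmC and 0 were higher (0.766% and 0.186% of all 8-mers, 0.952% together), while the unadjusted p was under 0.05 at 85 members. The values nevertheless leaned by the base after the half-site. Both 5hmC arrays lay above both 5mC arrays at 140 of 232 members with A (60.3%), against 22.7% of all 8-mers, at 28 of 185 with C and at 78 of 224 with T. Both lay below at 8, 56 and 38 of them, against 23.7% of all 8-mers. The median difference was 0.97 for A, -0.18 for C and 0.13 for T. These counts describe the arrays and carry no test.

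Both members that passed had C after the half-site. gcaTGACc, which had risen with 5mC, read 1.12 and 1.66 with 5hmC (5hmC minus 5mC -4.95 ± 1.02, limma adjusted p = 0.0222). TGACcagc read 3.28 and 4.42 with 5mC and 0.267 and 1.02 with 5hmC (-3.21 ± 0.699, 0.0289). The counts were 0 without CREB1 5hmC replicate 2, and 1 without its replicate 1 or without 5mC replicate 2. Among members starting with the half-site, those with CA behind it had medians of 1.28 and 1.30 with 5mC and 0.531 and 0.537 with 5hmC, whereas those with AA read 1.73 and 0.816 and then 2.77 and 3.50.

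ATF1 fell mainly at members with A after the half-site too, with fewer calls. With 5mC, 41 of 848 members were lower and 1 was higher by limma, against 2.06% and 1.19% of all 8-mers. With 5hmC, 32 were lower and 0 higher, against 2.08% and 0.0998%, with an unadjusted p under 0.05 at 232. Of the 41, 21 had A after the half-site, 3 C and 3 T, and 14 ended with it. For 5hmC the counts were 16, 6, 2 and 8. Members with A also started higher on C in ATF1 than those with C or T. Of the 41 members lower with 5mC in ATF1, 32 (78.0%) were also lower in CREB1, where they made up 13.6% of its 235. For 5hmC the shared number was 21, 65.6% of the ATF1 members and 13.5% of those of CREB1. The matching shares over all 8-mers were not counted, and 1 spread per 8-mer was fitted for all proteins. The overlaps are thus not read as a trait of the members. The ATF1 calls rested on all 4 arrays of each comparison. Most were lost without any 1 of them, as were most calls over all 8-mers. With only the 6 ATF1 arrays in the fit the counts of changed members were 179 (21.1%) and 146 (17.2%), where 7.87% and 5.45% of all 8-mers changed. Without the 6 JUND arrays but with those of CREB1 they were 56 and 44 (4.35% and 2.46% of all 8-mers). After quantile normalization they were 25 (2.95%) and 22 (2.59%), against 3.54% and 2.66% of all 8-mers.

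The largest called falls of ATF1 with 5mC were at ttaTGACa, gaTGACac, aaTGACac, aTGACata and TGACataa, all with A after the half-site. ttaTGACa went from 10.3 and 7.79 on C to 0.783 and 1.78 (difference -7.76 ± 1.28, limma adjusted p = 0.0038). gaTGACac went from 10.4 and 10.0 to 2.50 and 2.74 (0.03), and aaTGACac from 9.33 and 7.92 to 1.39 and 1.68 (0.0116). aTGACata went from 9.50 and 8.57 to 2.47 and 1.67 (0.0415), and TGACataa from 7.87 and 6.56 to 0.649 and 0.0278 (0.012). A smaller fall at TGACatgt, to 0.477 and 0.658, also passed (0.0467). No 5mC array reached 4 at these members. TGACatca read 0.364 and 1.08 with 5mC and 0.948 and 1.31 with 5hmC without passing the test (limma adjusted p = 0.17 and 0.241). One spread was fitted for all proteins, and the CREB1 arrays at TGACatca were wide apart. On log2 probe medians TGACatca fell in ATF1 by 1.42 with 5mC and by 1.77 with 5hmC (limma adjusted p = 0.00233 and 0.000302).

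With 5hmC the largest falls of ATF1 were at gctaTGAC, aTGACata, gTGACata, gcaTGACa and ttaTGACa. gctaTGAC went from 10.0 and 10.2 to 1.92 and 1.63 (limma adjusted p = 0.037), and 6 of its 16 probes held TGACG. gTGACata went from 8.80 and 7.29 to 1.61 and 0.609 (0.0363), and gcaTGACa from 5.00 and 5.38 to 0.34 and -1.77 (0.0372). aTGACata read 2.37 and 1.36 (0.0431). TGACctca, with 2.58 and 2.52 on C, fell to -0.859 and -0.766 with 5mC and to -1.11 and -0.851 with 5hmC (0.0485 and 0.0471), and it was thus called lower with both modifications in both proteins. Both ATF1 calls at TGACctca were lost with a replicate block, without a trend in the spread and without any 1 array, with adjusted p up to 0.25 and 0.235 over the settings. The single rise with 5mC, at TGACccct, came from 1 probe, and this was also the one member lower with 5hmC than with 5mC (0.591% of all 8-mers were lower and 0.134% higher). Without the test, both 5hmC arrays of ATF1 lay above both 5mC arrays at 83 of 232 members with A after the half-site and at 25 of 185 with C, against 24.6% of all 8-mers. Both lay below at 33 with A and at 77 with C, against 27.3% of all 8-mers.

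A test of the difference between the proteins was passed with 5mC by 2 members (0.236%), both with the larger fall in CREB1. That share is near the 0.252% of all 8-mers called in the same direction, with 0.02% in the other. At gTGACata the change with 5mC was 12.8 lower in CREB1 than in ATF1 (limma adjusted p = 0.0241), with ATF1 at 1.35 and 1.62 with 5mC. At gcaTGACa it was 10.3 lower (0.0357). There CREB1 went from 13.9 and 17.9 to 3.71 and 4.25, while ATF1 read 5.00 and 5.38 on C and 2.83 and 4.33 with 5mC. CREB1 also started from a higher level on C at both members. No member passed for 5hmC, with 52 at an unadjusted p under 0.05, and 0.21% of all 8-mers were called lower and 0.00461% higher. The 5mC calls were lost without CREB1 5mC replicate 1 or without any 1 of the 4 ATF1 arrays. More members passed without CREB1 C replicate 1, and more of all 8-mers did too. After quantile normalization 0 passed, of the members and of all 8-mers.

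JUND fell with 5mC at members with T after the half-site. By limma 10 members were lower with 5mC and 0 higher, against 0.244% and 0.799% of all 8-mers (1.04% changed). None of the 10 was among the members lower in CREB1 or ATF1, an overlap that was not counted over all 8-mers. T followed the half-site in 9 of them and C in 1. The AP-1 site also has T there, although members with the whole AP-1 heptamer were left out. That heptamer can run beyond the end of an 8-mer, and probes that hold it were not removed. The largest falls were at caTGACta (14.3 and 4.57 on C, 1.34 and -0.569 with 5mC, limma adjusted p = 0.0305), ggTGACtc (11.7 and 3.94 to -0.175 and -0.185, 0.0204) and gaTGACta (10.2 and 4.47 to 0.177 and -0.0433, 0.022). acaTGACt (8.07 and 3.57 to 0.105 and -0.694, 0.00993) and aggTGACt (5.31 and 2.06 to -0.366 and 0.571, 0.0388) followed. JUND C replicate 1 read more than 2 times as high as replicate 2 at each. The count rose without that replicate 2, and calls were lost without replicate 1 or without either 5mC array. The share of all 8-mers moved in the same directions. With only the 6 JUND arrays in the fit the count of members was 0, where 0.00461% of all 8-mers changed.

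Other members with TA after the half-site had values of this kind that did not pass the test. aTGACtaa, named after its values were seen, had the lowest JUND difference with 5mC of all members with T after the half-site, and read 39.8 and 6.96 on C and 0.631 and 0.0562 with 5mC (limma adjusted p = 0.0508). TGACtaat read 20.9 and 3.50 on C and 2.09 and 0.247 with 5mC (0.0704), and TGACtaac 12.0 and 2.80 and then 0.754 and 0.53 (0.0753). At each of them both 5mC arrays lay below both C arrays, which were far apart. TGACacat, with A after the half-site, read 11.0 and 4.28 and then 0.672 and 0.9 (0.0522). The highest JUND value of a member starting with the half-site was at TGACcccc, at 44.3 and 20.9 on C, from its single probe. CREB1 and ATF1 read at most 7.29 at aTGACtaa, TGACtaat and TGACtaac. In CREB1 TGACtaat stood at 1.14 and 2.79 on C and at 2.23 and 1.80 with 5mC (0.997).

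With 5hmC no member of JUND passed against C in the limma fit, as was so for all 8-mers (0%), while the unadjusted p was under 0.05 at 146 members and at 6123 of all 8-mers. caTGACta read 1.35 and 0.384 with 5hmC and TGACtaat 2.44 and -0.203. Some members passed without JUND C replicate 2 or without 5hmC replicate 1, as did some of all 8-mers. Without 5hmC replicate 1 the share of members lay below that of all 8-mers. Against 5mC, 3 members were higher with 5hmC and 8 lower (0.946% and 2.16% of all 8-mers, 3.11% together). The rises were at TGACagat (-0.681 and -0.673 to 2.37 and 6.74, limma adjusted p = 0.0276), tttTGACt (-1.57 and -1.15 to 0.539 and 2.92, 0.0132) and ccccTGAC, which a single probe carried. The falls included agTGACca (6.73 and 4.54 to 2.18 and -0.291, 0.043), cccaTGAC (4.41 and 3.31 to -0.347 and 0.236, 0.0448) and TGACccct on its single probe. That count of 11 rose without 5hmC replicate 1 and fell without 5hmC replicate 2 or either 5mC array, as did the share of all 8-mers.

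The reverse complement of a member, written on the modified strand, puts the half-site on the unmodified strand. On unmodified DNA it is the same duplex sequence, but on all arrays, those with C included, it is carried by its own set of probes. Its values on C can thus differ from those of the member. On modified DNA other cytosines are modified as well. The test compared the change at a member with the change at its reverse complement. With 5mC the change in CREB1 differed at 69 of 848 members (8.14%) against 4.43% of all pairs of reverse complements. At 52 of the 69 the change was higher, a smaller fall or a rise, with TGAC on the modified strand. The member's own mean was below C at 41 of the 52, and that of the reverse complement at all 52. With 5hmC the change differed at 104 (12.3%) against 3.57%. It was higher with TGAC on the modified strand at 90 of these, 51 of them with A after the half-site. The member's own mean was below C at 70 of the 90, and that of the reverse complement at all 90. In ATF1 9 members differed with 5mC (1.46% of all pairs) and 0 with 5hmC (0.0403%), where the unadjusted p was under 0.05 at 115 members. The 9 of ATF1 became 0 when any 1 of the 4 arrays was left out. On log2 probe medians they were 86 (10.1%), below the 12.1% of all pairs. The CREB1 counts fell without C replicate 2, and without either array of the modified DNA. The shares of all pairs fell in those fits too.

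The median z-scores on unmodified DNA were close from both ends over all members with A after the half-site, at 2.79 and 4.62 for the members and 2.93 and 4.66 for their reverse complements in CREB1. Of the 90 members with the higher change with 5hmC, 87 had the higher CREB1 mean on C at the reverse complement. The medians on C were 4.43 for the members and 8.45 for their reverse complements. With 5hmC the order was turned at most of them: 78 of the 90 then read higher with TGAC on the modified strand, with medians of 3.01 and 0.942. For the 52 of 5mC the corresponding numbers were 48 on C and 37 with 5mC. These members were selected on a difference that contains the values on C, so their levels are a description only. On log2 probe medians the counts were 48 (5.66%) for 5mC and 46 (5.42%) for 5hmC, against 4.73% and 1.89% of all pairs. The 5mC share was thus near that of all pairs on this scale. Without probes holding TGACG the counts were 43 and 21, against 4.11% and 0.867% of all pairs.

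The largest of these strand differences lay at 3 overlapping members, chosen after their values were seen, that share taTGACa. They are printed with their reverse complements, in which capitals mark the complement of the half-site.
member ending in AG: taTGACag
its reverse complement: ctGTCAta
member ending in AA: taTGACaa
its reverse complement: ttGTCAta
member starting with CTA: ctaTGACa
its reverse complement: tGTCAtag
At taTGACaa, CREB1 read 4.46 and 7.40 on C and 6.93 and 6.35 with 5hmC. Its reverse complement went from 15.2 and 27.6 to 2.46 and 3.46. The member's C and 5hmC arrays thus overlapped, while those of its reverse complement did not (strand difference 19.2 ± 2.28, limma adjusted p = 2.86e-05). At taTGACag the member read 7.55 and 15.2 on C and 8.12 and 11.7 with 5hmC, and the reverse complement 24.5 and 29.0 and then 1.99 and 3.48 (22.6 ± 2.08, 1.36e-06). ctaTGACa read 10.6 and 17.4 and then 7.52 and 7.65, against 26.7 and 33.2 and then 3.01 and 2.97. With 5mC both ends of taTGACag read between 1.91 and 2.70.

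The opposite was also seen. At aTGACata the loss was greater with TGAC on the modified strand, with both modifications (strand differences of -9.57 and -8.48, limma adjusted p = 0.00104 and 0.00447). Its reverse complement, tatGTCAt, read 7.02 and 14.8 on C, 1.92 and 1.23 with 5mC and 2.28 and 1.55 with 5hmC. The member had the higher value on C here on both arrays. TGACatca lost 12.6 less than its reverse complement with 5hmC (limma adjusted p = 0.0119), whose values on C were 33.2 and 49.8. At gTGACata the change at both ends did not pass the test of a difference (strand differences of -2.56 ± 2.11 and -0.807 ± 2.11, limma adjusted p = 0.638 and 0.91).

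Single probes include G after the half-site, which the members exclude. Probes that held TGAC once, on the modified strand only, were grouped by the next base, and their median log2 signal over the array median is given. In CREB1 on C the 989 probes with A read 0.82 and 1.08 and the 980 with G read 2.30 and 2.88. The 942 with C read 0.16 and 0.33 and the 979 with T 0.24 and 0.40. The order G, A, T and C thus matched that of the members for the bases they have. With 5mC the probes with A read 0.41 and 0.40 and with 5hmC 0.53 and 0.46. Where TGACA lay on the unmodified strand, 950 probes read 0.74 and 1.05 on C, 0.27 and 0.16 with 5mC and 0.25 and 0.25 with 5hmC.

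ATF1 probes followed the same order. With A on the modified strand they read 0.79 and 0.82 on C, 0.40 and 0.38 with 5mC and 0.36 and 0.33 with 5hmC. On the unmodified strand they read 0.73 and 0.75, then 0.12 and 0.10, then 0.12 and 0.07. In both proteins the TGACA probes thus kept more signal when TGAC lay on the modified strand, on every array of modified DNA. This order was not particular to A: CREB1 probes with G and 5hmC read 1.11 and 1.16 there, against -0.004 and 0.042 on the unmodified strand. With T and 5mC the order was the other way. CREB1 read 0.09 and 0.07 on the modified strand against 0.15 and 0.12, and ATF1 -0.02 and 0.03 against 0.14 and 0.10. By the second base, with no test, in CREB1 the 240 probes with AA read 0.77 and 0.92 on C, 0.59 and 0.43 with 5mC and 0.77 and 0.62 with 5hmC. The 230 with AT read 0.92 and 1.13, then 0.26 and 0.25, then 0.45 and 0.37. The probes with CA read 0.41 and 0.61 on C, 0.50 and 0.58 with 5mC and 0.11 and 0.14 with 5hmC. JUND probes with T read 0.57 and 0.11 on C and -0.02 and -0.13 with 5mC.

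Members that end with the half-site take in probes in which G follows. A median of 26.7% of the probes behind these 207 members held TGACG on either strand, against 0% to 5.26% for members with the half-site further from the end. On log2 probe medians, 49 of the 207 and 118 of the other 641 members were lower in CREB1 with 5mC (5.38% of all 8-mers). Without the TGACG probes the counts were 28 and 106 (3.81% of all 8-mers). With 5hmC they went from 33 and 66 (5.09%) to 15 and 53 (3.39%). In ATF1 with 5mC they went from 39 and 109 (7.29%) to 23 and 100 (6.17%), and with 5hmC from 17 and 52 (3.62%) to 7 and 45 (2.19%). The count thus dropped more, as a share, among members ending with TGAC than among the others. The JUND counts with 5mC went from 12 and 55 (2.32%) to 14 and 55 (2.3%).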

How the data were processed

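Each of the 18 arrays had 1 deposited file of probe intensity and background, linear intensity per the file headers, and 1 column of z-scores, a score per 8-mer that the authors deposited in a table of the series. Its calculation by the authors is not stated in the labels or headers. The z-scores of an 8-mer were taken as those of the probes that carry it on the synthesized strand, so 8-mers are written as on the modified strand. The 65530 8-mers included 409 that no probe carried on that strand. Groups were taken from the labels. Of 65530 8-mers, the 65121 carried by a probe were fitted with limma 3.58.1 in R 4.3.3 with 1 mean per group over all 18 arrays, a trend in the spread and a two-sided test at an adjusted p of 0.05. One spread is shared by all groups of an 8-mer. Differences between proteins were interaction contrasts. Strands were compared on the z-score of an 8-mer minus that of its reverse complement. In a log2 alternative, probe intensity was background-corrected (normexp, offset 50), and medians per 8-mer were centred on the array median. Other steps used Python 3.11.15, numpy 2.4.6 and pandas 2.3.3, and fits were tested on simulated data.

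The members named were the fifth-base substitutions, the 5 highest of each protein on C among those starting with the half-site, up to 5 called rises and 5 falls against C, and up to 3 each way between 5hmC and 5mC. Of 9 such substitutions, 1 formed an AP-1 heptamer and was no member. Members, lists and tests were chosen with earlier results of these data known. The alternatives were a replicate block, no trend, the 6 arrays of a protein alone, quantile normalization, the log2 medians with and without probes holding TGACG, a minimum of 10 probes and each array left out. Added after seeing the data were fits without the 6 JUND arrays and the strand test without TGACG probes. The number of arrays limits the precision.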

Additional observations from a re-analysis of the deposited data

Results flagged for a closer look

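The effect of 5mC differed between CREB1 and ATF1 at 2 members by the interaction contrast in limma. These are 0.236% of the members, where 0.272% of all 8-mers were called. The count was 0 after quantile normalization, without CREB1 5mC replicate 1 and without any 1 of the 4 ATF1 arrays. At gTGACata it was -12.8 (CREB1 minus ATF1 of the z-score difference between 5mC and C, adjusted p = 0.0241), with means of 21.4 and 1.97 in CREB1 and of 8.05 and 1.48 in ATF1. At gcaTGACa it was -10.3 (adjusted p = 0.0357), with means of 15.9 and 3.98 in CREB1 and of 5.19 and 3.58 in ATF1. CREB1 was the higher of the proteins on C at both, and its part in the difference was not tested.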

How the results depend on the processing

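Counts of changed members out of 848 moved with the setting as follows, each given after the reported count. Quantile normalization took CREB1 from 238 to 30 with 5mC and from 157 to 20 with 5hmC, and ATF1 with 5mC from 42 to 25. It took JUND from 10 to 40 with 5mC and from 0 to 8 with 5hmC. In that order, 3.13%, 2.81%, 3.54%, 1.94% and 0.169% of all 8-mers changed. For 5hmC against 5mC it went from 2 to 4 in CREB1 (0.472%), from 1 to 15 in ATF1 (1.77%) and from 11 to 19 in JUND (2.24%). These shares lay below the 0.608%, 2.18% and 3.84% of all 8-mers. The difference between CREB1 and ATF1 with 5mC went from 2 to 0, where 0% of all 8-mers were called. A fit without a trend gave 11 for 5hmC against 5mC in CREB1, where 1.03% of all 8-mers changed. It gave 65, 53 and 0 for ATF1 with 5mC, with 5hmC and between them (3.57%, 2.54% and 0.754% of all 8-mers). For JUND with 5mC it gave 5 (0.706% of all 8-mers). With only the 6 arrays of a protein, 5hmC against 5mC in CREB1 gave 0 (0.444% of all 8-mers). ATF1 gave 179, 146 and 19 (7.87%, 5.45% and 3.22%), and JUND 0 with 5mC and for 5hmC against 5mC (0.00461% each). On log2 probe medians, CREB1 gave 99 with 5hmC and 7 for 5hmC against 5mC, ATF1 153, 70 and 55, and JUND 72, 1 and 51. Of these, the 5hmC against 5mC counts lay below the share of all 8-mers (0.825% against 1.28% in CREB1, 6.49% against 10.7% in ATF1 and 6.01% against 9.51% in JUND). The counts against C stood beside 6.01% of all 8-mers in CREB1 with 5hmC, 12.6% and 4.53% in ATF1 and 5.16% and 0.0399% in JUND. Without TGACG probes the log2 medians gave 137, 68 and 6 for CREB1 (6.76%, 4.11% and 1.19% of all 8-mers). ATF1 gave 130, 52 and 59 (11.3%, 2.67% and 10.7%), and JUND 75, 1 and 61 (5.14%, 0.017% and 9.68%). The strand counts of 69 and 104 in CREB1 became 43 without TGACG probes for 5mC (4.11% of all pairs). For 5hmC they became 46 with and 21 without them (1.89% and 0.867% of all pairs). Those of 9 and 0 in ATF1 became 86 and 5 (12.1% and 0.419% of all pairs), and 81 and 1 without these probes (11.7% and 0.0845%). A minimum of 10 probes gave 0 for 5hmC against 5mC in ATF1 (0.842% of all 8-mers) and 16 for JUND with 5mC (1.21%). Fits without the 6 JUND arrays gave 8 and 11 for 5hmC against 5mC in CREB1 and ATF1 (1.38% and 2.81% of all 8-mers).

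Leaving out 1 array at a time gave 104 to 262 for CREB1 with 5mC, 54 to 199 with 5hmC and 0 to 3 between them. ATF1 gave 0 to 5, 0 to 5 and 0, and JUND 0 to 59, 0 to 40 and 0 to 23. The difference between CREB1 and ATF1 ran from 0 to 43 with 5mC and from 0 to 21 with 5hmC. Strand counts ran from 22 to 70 and from 35 to 89 in CREB1 and were 0 throughout in ATF1, for both modifications.

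The replicate block gave 232, 154 and 2 for CREB1 (8.21%, 7.72% and 0.838% of all 8-mers) and 36, 27 and 1 for ATF1 (2.82%, 1.99% and 0.517%). It gave 8, 0 and 8 for JUND (0.791%, 0% and 2.75%) and 5 for the strand difference of ATF1 with 5mC (1.19% of all pairs). Same-numbered arrays deviated together in 5 of 36 pairs of groups (correlation over 0.1; range -0.163 to 0.636), among them C with 5hmC in JUND (0.636), ATF1 (0.216) and CREB1 (0.202). Since not every pair did, the number was not taken as a pairing. Among the members named, direction turned in 4 cases: TGACccca in CREB1 was 0.53 with 5mC on log2 medians without TGACG probes and 4.91 with 5hmC after quantile normalization, cctaTGAC was 2.40 in CREB1 and ttaTGACa 0.58 in ATF1, both with 5hmC after quantile normalization. The cause was not tested. Of 620 settings over 53 named calls, 410 kept the call, 207 lost it and 3 turned it. Low signal over background on JUND 5hmC replicate 2 limits what that group can show, and members on 1 or 2 probes rest on those spots.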
